A study of Homo sapiens and Pan troglodytes with 11 samples.

Results

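ONECUT2 was 1 of the 21 genes whose transcripts were counted in 4 of the 11 libraries of a CRISPR interference screen of human accelerated regions in neurons. It was taken as the ONECUT2 column of those 4 tables, and cells in which GAPDH made up more than 80% of the gene molecules were left out. That left 62060 ONECUT2 molecules in 16969 of the 18699 cells of the 4 tables. CRISPR interference lowers the activity of a genomic site by bringing to it, through a guide RNA, a repressor fused to a Cas9 that does not cut, and human accelerated regions are conserved stretches of the genome that changed fast on the human lineage. Transcripts and guide barcodes were counted per cell by HyPR-seq, in which pooled probes hybridise to chosen transcripts in fixed cells, are ligated and are then amplified in droplets with barcoded beads.

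Human 4 and human 5 were neurons made from the human induced pluripotent stem cell line WTC11, and chimpanzee 3 and chimpanzee 4 were neurons made from the chimpanzee line C3649. All 4 libraries belonged to screen replicate 2, and all cells were labelled as excitatory neurons, which the series' design text places at about 2 weeks of differentiation. The libraries carried the same 28 guide barcodes, 7 named Brainbar and 21 named SplintRbar. No map from a barcode to its target or to a control was used here, so a barcode below is a group of cells and not a known perturbation. Each species was 1 line, and the labels do not say that the libraries of a species were separate cultures. The p-values therefore measure only the spread between these libraries, which may be technical, and species cannot be told apart from line or from how well the probes match chimpanzee transcripts.

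ONECUT2 is a transcription factor of the ONECUT family, which binds DNA through a cut domain and a homeodomain. The family is known from liver and pancreas development and from neurons, where its members act in the differentiation of motor neurons, retinal neurons and other types. Forced ONECUT2 expression is also known to drive cells toward neuronal gene programmes. In the GRCh38 build with GENCODE 29, the protein-coding gene (ENSG00000119547.5) lies on the plus strand of chromosome 18 from 57435685 to 57491297. Its coding transcript, ONECUT2-202, has 2 exons and 1512 coding bases in 16121 exon bases, so that most of the transcript is 3′ untranslated region (14577 bases). The other annotated transcript, ONECUT2-201, is a processed transcript of 437 bases in 3 exons. The probes' positions on these transcripts were not analysed here, so the isoform counted is not known. The label of excitatory neurons could not be checked, since 0 of the 5 excitatory markers listed (SLC17A6, SLC17A7, TBR1, NEUROD2 and NEUROD6) were among the 21 genes. Of 5 pan-neuronal markers, NRSN2 and SCRT2 were measured, and of 4 progenitor markers, GLI2.

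The libraries held 3825, 4621, 5825 and 4428 cells in the order human 4, human 5, chimpanzee 3 and chimpanzee 4, and the median kept cell had 101, 86, 111 and 98 unique molecular identifiers (UMIs) of genes outside GAPDH. Human 4 stood apart in GAPDH, which exceeded 80% of gene UMIs in 1712 of its cells (44.8%) against 2 to 9 cells in each of the others. Cell barcodes were also shared between libraries. Human 4 and human 5 had 1060 in common, human 4 and chimpanzee 3 had 1003, human 5 and chimpanzee 3 had 995, and 880 occurred in all 3 of them, while chimpanzee 4 shared at most 9 with any other library. Among kept cells, shared barcodes made up 14.0% of human 4, 25.5% of human 5, 19.3% of chimpanzee 3 and 0.226% of chimpanzee 4. In human 4, 296 of the 1183 cells with a shared barcode were kept, so most of them were among the cells left out for GAPDH. The ONECUT2 share of a cell did not follow its barcode from one library to another, with a correlation of -0.064 over 984 barcodes common to human 5 and chimpanzee 3, and of 0.022 and 0.059 over the 116 and 114 that human 4 had in common with each of them (kept cells with at least 40 UMIs outside GAPDH in both). Results are given with these cells and, where stated, without them.

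ONECUT2 made up a larger part of the counted molecules in the human than in the chimpanzee libraries. Of every 1000 gene UMIs outside GAPDH, ONECUT2 gave 45.9 in human 4, 55.7 in human 5, 19.2 in chimpanzee 3 and 21.6 in chimpanzee 4. Both human libraries lay above both chimpanzee libraries. These shares rest on 10367, 25438, 15229 and 11026 ONECUT2 UMIs, so the libraries of a species also differed from each other beyond counting error. In cells whose barcode occurred in no other library, ONECUT2 stood at 45.3, 53.6, 19.3 and 21.6 per 1000, and in the cells with shared barcodes at 54.4, 65.3, 18.6 and 26.5. By this summed share, chimpanzee 3 was about as low in ONECUT2 among its cells with a shared barcode as among its other cells. Its cells did not match one by one. With at least 40 UMIs outside GAPDH, 21.7% of the shared cells had no ONECUT2 UMI, against 29.4% of the others.

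With libraries scaled by edgeR's trimmed mean of M-values, ONECUT2 stood at 45.0 ± 6.95 normalized UMIs per 1000 in human neurons and 23.1 ± 1.83 in chimpanzee neurons (SD, n = 2 libraries each). The difference was 0.97 ± 0.11 on the log2 scale (human minus chimpanzee, SE) with an adjusted p of 7.63e-05 by edgeR's quasi-likelihood test. A call was no mark of ONECUT2 in this comparison, because 75.0% of the 20 genes outside GAPDH were called, 7 of them higher and 8 lower in human. ONECUT2 had the third-highest log2 difference. The fit uses a common dispersion over all 20 genes, and each gene's remaining spread is drawn toward that of the others. This SE therefore reflects ONECUT2's own variation between libraries only in part. An exact permutation test of ONECUT2 alone over the 4 libraries gave p = 0.33 (two-sided), the smallest that 2 against 2 libraries allow. Without the shared barcodes the fitted difference was 0.92, and with the GAPDH-heavy cells kept it was 0.99.

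The direction held under each scaling run, but its size did not. Scaling by totals outside GAPDH gave 1.32 and scaling by GAPDH UMIs gave 1.58. The median difference of all 20 genes moved with it, from -0.08 to 0.27 and 0.53, and the calls moved from 7 higher and 8 lower to 12 higher and 5 lower (85.0% called) and to 12 higher and 4 lower (80% called). Relative to that median, ONECUT2 was higher in human by 1.04, 1.04 and 1.05 under the 3 scalings. Among the other transcription factors of the set, the basic helix-loop-helix repressor BHLHE40 was also higher in human (1.80 ± 0.11). GLI2, a mediator of hedgehog signalling, was lower in human (-1.72 ± 0.09), as was the neuronal basic helix-loop-helix factor NPAS3 (-1.33 ± 0.08). The difference of SCRT2, a zinc-finger repressor of neurons, was smaller (-0.28 ± 0.07).

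**Figure D1:**
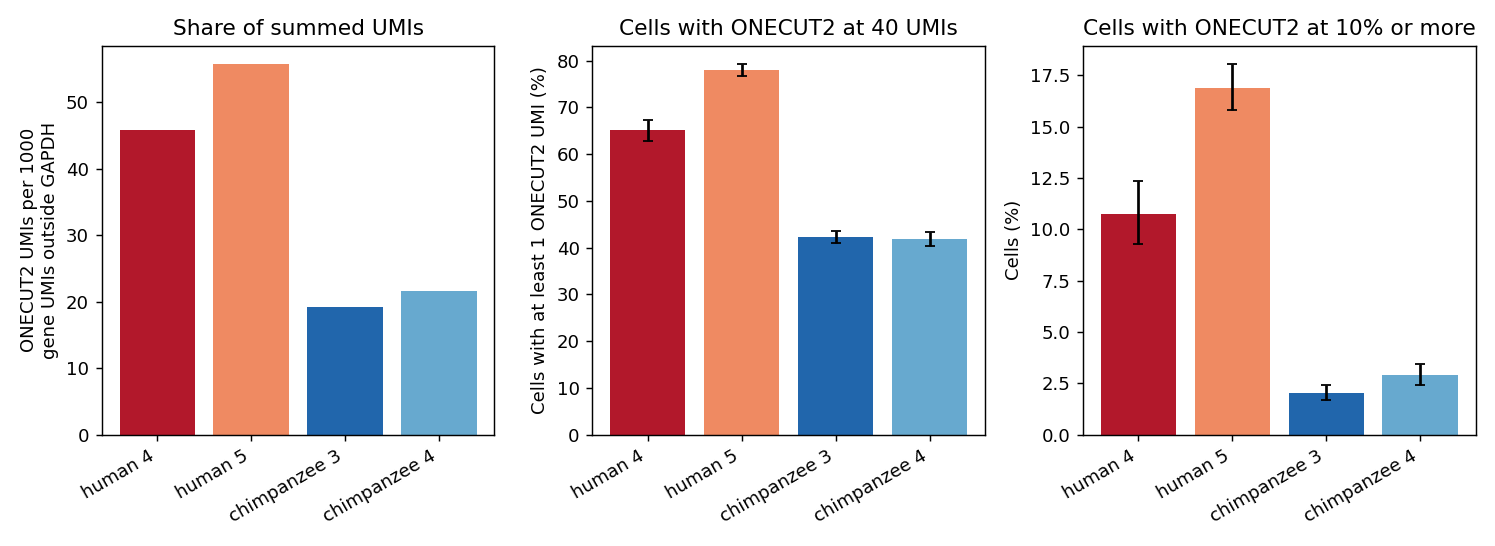
ONECUT2 in the 4 libraries as UMIs per 1000 gene UMIs outside GAPDH (left, summed over cells), as the percent of cells with at least 1 ONECUT2 UMI after thinning to 40 UMIs (middle) and as the percent of cells in which ONECUT2 made up 10% or more of UMIs outside GAPDH (right). Bars in the middle and right panels carry exact 95% binomial intervals for counting error only, and in all 3 panels both human libraries lie above both chimpanzee libraries.

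More human than chimpanzee cells had an ONECUT2 UMI. As deposited, 79.1% of kept cells in human 4, 90.0% in human 5, 71.9% in chimpanzee 3 and 66.5% in chimpanzee 4 held at least 1, and the median cell held 2, 4, 1 and 1. Since detection rises with depth, each of the 16125 cells with at least 40 UMIs outside GAPDH was thinned at random to 40, and 468, 224, 33 and 119 shallower cells were left out. At that depth ONECUT2 was found in 65.1% of cells in human 4 (exact 95% interval 62.7% to 67.4%), 78.0% in human 5 (76.7% to 79.2%), 42.2% in chimpanzee 3 (40.9% to 43.5%) and 41.8% in chimpanzee 4 (40.3% to 43.3%). The chimpanzee libraries did not differ from each other beyond counting error, the human libraries did, and no human library overlapped a chimpanzee library. The mean difference was 29.6 percentage points, with p = 0.33 in the two-sided exact permutation test over libraries. Without shared barcodes, detection was 62.3%, 72.4%, 39.6% and 41.6%. No cell class in these tables is known to lack ONECUT2, so the part of these UMIs that came from free RNA was not tested.

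ONECUT2 varied from cell to cell more than most genes of the set. The variance of its thinned UMIs divided by their mean, which is about 1 when only counting varies, was 2.32 in human 4, 1.95 in human 5, 2.11 in chimpanzee 3 and 2.28 in chimpanzee 4. The median of the other 19 genes was 1.17, 1.10, 1.11 and 1.15. ONECUT2 ranked first of 20 genes in both human libraries and second in both chimpanzee libraries, where AKAP6, which anchors protein kinase A, stood higher at 2.18 and 2.59. TBC1D5, a regulator of Rab GTPases in membrane traffic and the closest to ONECUT2 in thinned UMIs averaged over the 4 libraries, though not the closest in any one of them, stood at 1.11, 1.09, 1.04 and 1.09. The next closest by that average, the neuronal vesicle protein NRSN2, stood at 1.29, 1.14, 1.08 and 1.14.

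After counting error was taken off, the coefficient of variation of ONECUT2 over cells was 0.899 in human 4, 0.671 in human 5, 1.26 in chimpanzee 3 and 1.33 in chimpanzee 4. It was the highest of the 20 genes in each of the 4 libraries, where the highest other gene reached 0.775, 0.601, 1.09 and 0.962. Relative variation in ONECUT2 was thus higher in both chimpanzee libraries than in both human libraries, while the mean was lower. The mean difference (human minus chimpanzee) was -0.506, and without shared barcodes the 4 values were 0.965, 0.813, 1.39 and 1.32. This order of the species was not particular to ONECUT2. Among other genes it also held for AKAP6 (0.318, 0.254, 0.651 and 0.764) and SCRT2 (0.502, 0.186, 0.909 and 0.962). It held as well for BHLHE40, PLCL2, PLXNC1, SOCS2 and SRXN1, listed here after their values were seen. BAZ1A ran the other way (0.594, 0.507, 0.316 and 0.357), as did PSMA6 (0.363, 0.200, 0.166 and 0.198).

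The distribution of ONECUT2 had a different shape in the 2 lines. Among cells with at least 40 UMIs outside GAPDH, the median cell gave ONECUT2 2.92% of those UMIs in human 4, 5.00% in human 5 and 1.12% in both chimpanzee libraries. At the 90th percentile the shares were 10.3%, 11.8%, 4.17% and 4.76%, and at the 99th percentile 18.9%, 19.4%, 12.8% and 14.4%. Both chimpanzee libraries lay below both human libraries at each of these points. The 10% of cells with most ONECUT2 UMIs held 36.2% and 33.0% of all ONECUT2 UMIs in human 4 and human 5, against 50.9% and 55.6% in chimpanzee 3 and chimpanzee 4.

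A cell is called ONECUT2-high below where ONECUT2 made up 10% or more of its UMIs outside GAPDH. This is a range of a continuous measure and not a cell type, and 219, 797, 120 and 123 cells lay between 8% and 12%. ONECUT2-high cells numbered 177 in human 4 (10.8%, exact 95% interval 9.30% to 12.4%), 741 in human 5 (16.9%, 15.8% to 18.0%), 117 in chimpanzee 3 (2.02%, 1.67% to 2.42%) and 124 in chimpanzee 4 (2.88%, 2.40% to 3.43%). Cells with no ONECUT2 UMI made up 17.6%, 8.41%, 27.9% and 32.6%. High cells were scarcer and empty cells more frequent in both chimpanzee libraries, and the share of high cells also differed between the libraries of each species.

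Depth moved with these classes. The median high cell had 135, 95, 131 and 129.5 UMIs outside GAPDH, and the median cell with no ONECUT2 UMI had 92, 75, 97 and 86. Shared barcodes moved with the high class in chimpanzee 3. There 0 of 1122 cells with a shared barcode were ONECUT2-high, against 117 of the 4668 other cells (2.51%). The count of 0 allows a share of up to 0.267% by an approximate upper 95% limit, 3 divided by the number of cells. This is not an exact interval like those given for the high cells. In human 5 the share of high cells was 15.6% among shared and 17.3% among other cells, and in human 4 it was 12.1% among 124 shared cells and 10.7% among others. Cells with a shared barcode were shallower, at a median of 50.5, 61 and 87 UMIs in human 4, human 5 and chimpanzee 3, against 126, 104 and 122 in the other cells. Though shallower, fewer of them had no ONECUT2 UMI, at 4.84%, 2.59% and 21.7%, against 18.7%, 10.5% and 29.4% of the other cells. The part of depth and of the shared barcodes in these counts was not tested beyond leaving those cells out.

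**Figure D2:**
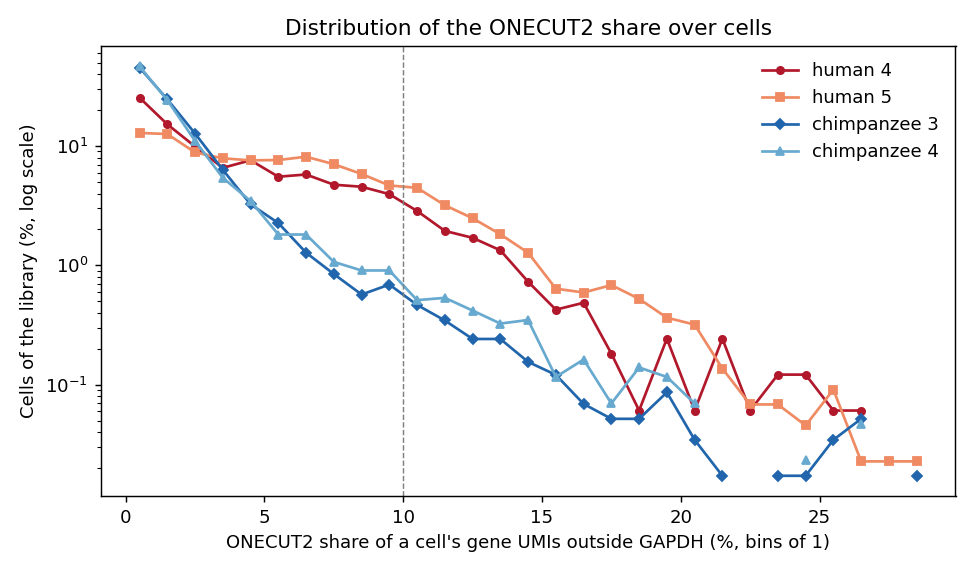
Percent of each library's cells (log axis) by the ONECUT2 share of their gene UMIs outside GAPDH, in bins of 1 percentage point below 30%, for cells with at least 40 such UMIs; bins with no cell have no point, and the dashed line marks 10%. The chimpanzee curves start higher near 0 and lie below the human curves from about 4% to 15%, above which a bin holds few cells and the curves cross.

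Which other genes varied with ONECUT2 from cell to cell was described by correlating, within each library, the deviations of each gene's UMIs from what the cell's total predicts (Pearson residuals). The cells of a library share their preparation and the counts are sparse, so these correlations are descriptions without a p-value, and weak ones are no finding. Of the 19 other genes, 6 were positive in all 4 libraries, 9 were negative in all 4 and 4 changed sign. Shares of a fixed total push each other down, so the same was computed with every other gene relative to the total without ONECUT2. Then 8 genes were positive and 8 negative in all 4 libraries.

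AKAP6 was the gene most like ONECUT2 by the mean over the 4 libraries (0.342). Its correlation was 0.165 in human 4 and 0.158 in human 5, over 1645 and 4388 cells, and 0.484 in chimpanzee 3 and 0.560 in chimpanzee 4, over 5790 and 4302 cells. Both chimpanzee libraries lay well above both human libraries. With AKAP6 relative to the total without ONECUT2 the values were 0.287, 0.300, 0.528 and 0.602, in cells thinned to 40 UMIs they were 0.067, 0.062, 0.298 and 0.402, and without shared barcodes 0.173, 0.198, 0.502 and 0.560. The order of the species was the same in each, and the human values after thinning were weak.

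NRSN2 came next, with 0.274, 0.189, 0.137 and 0.182, followed by PLCL2, a catalytically inactive relative of phospholipase C, with 0.219, 0.149, 0.158 and 0.176. These 2 genes were positive in each library, with human 4 the highest. In cells thinned to 40 UMIs they were weak, at 0.170, 0.100, 0.049 and 0.060 for NRSN2 and 0.081, 0.069, 0.069 and 0.100 for PLCL2. PLXNC1, a semaphorin receptor named here only after its values were seen, was positive in the human libraries (0.314 and 0.272) and near 0 in the chimpanzee libraries (-0.002 and 0.024).

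BAZ1A, a subunit of chromatin remodelling complexes of the ISWI type, was the gene most opposed to ONECUT2 by the mean over the 4 libraries, with -0.479 in human 4, -0.445 in human 5, -0.276 in chimpanzee 3 and -0.315 in chimpanzee 4. Relative to the total without ONECUT2 it stood at -0.436, -0.390, -0.223 and -0.261, and in cells thinned to 40 UMIs at -0.332, -0.299, -0.163 and -0.175, negative in each library on both scales. The adhesion receptor TENM3 gave -0.268, -0.298, -0.278 and -0.346, and was more negative than BAZ1A in both chimpanzee libraries. NPAS3 gave -0.363, -0.343, -0.164 and -0.169, more negative in the human libraries. Among the other transcription factors, SCRT2 was weakly positive (0.125, 0.147, 0.132 and 0.134) and GLI2 negative (-0.172, -0.186, -0.258 and -0.269), while BHLHE40 lay between -0.099 and 0.053.

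**Figure D3:**
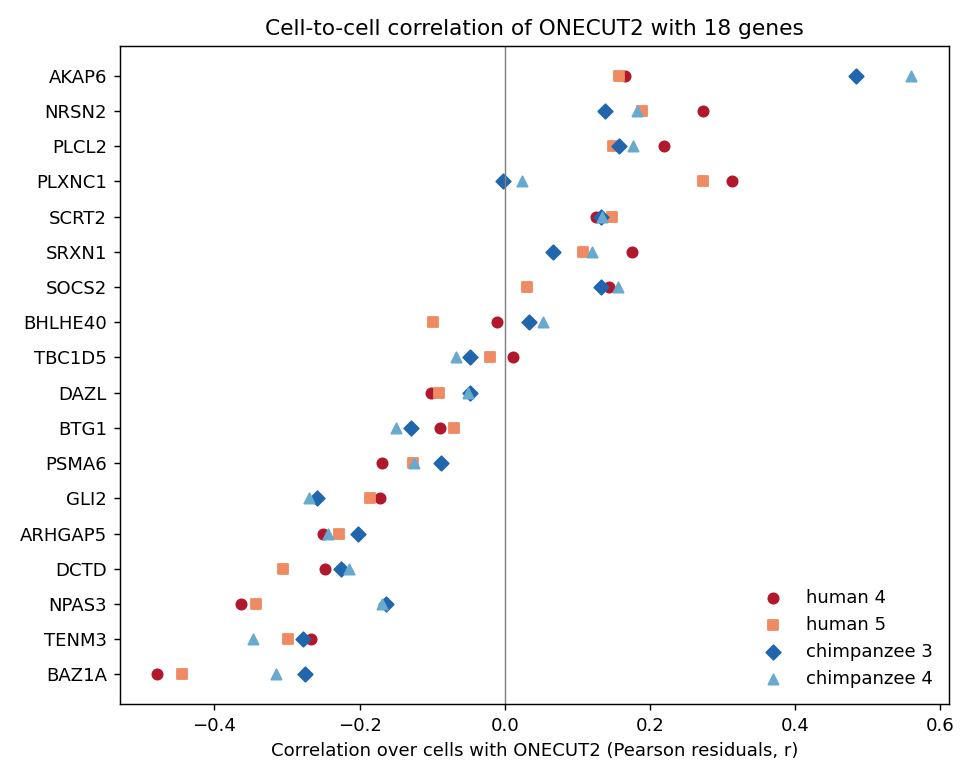
Correlation over cells of the Pearson residuals of ONECUT2 with those of 18 other genes (r on the horizontal axis), one symbol per library, for cells with at least 40 UMIs outside GAPDH. AKAP6 stands apart at the top with 0.484 and 0.560 in the chimpanzee libraries against 0.165 and 0.158 in the human ones, and BAZ1A is lowest in the human libraries (-0.479 and -0.445) and TENM3 in the chimpanzee ones (-0.278 and -0.346).

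ONECUT2-high cells and cells with no ONECUT2 UMI were then set side by side for the same genes, each measured per 1000 UMIs outside GAPDH and ONECUT2. AKAP6 stood at 222, 226, 198 and 217 in the high cells of human 4, human 5, chimpanzee 3 and chimpanzee 4, and at 164, 167, 57.5 and 49.8 in the cells with none. The high cells of the 4 libraries thus lay close together in AKAP6, and the cells with no ONECUT2 UMI lay far apart by species. All cells with at least 40 UMIs outside GAPDH also lay apart by species in AKAP6, at 192, 193, 78.1 and 77.1. The fixed cut for high cells took unlike parts of the libraries, at 10.8%, 16.9%, 2.02% and 2.88% of cells. On the log2 scale, AKAP6 in the high cells exceeded that in the cells with none by 0.43, 0.43, 1.78 and 2.12. Of the ONECUT2-high cells, 18.6% and 18.4% in the human libraries and 76.9% and 76.6% in the chimpanzee libraries were among the 10% of their library's cells with the largest AKAP6 share. These percentages have unlike ceilings. The AKAP6-rich cells numbered 165, 439, 581 and 431, against 177, 741, 117 and 124 ONECUT2-high cells. Only in the chimpanzee libraries could all high cells have been among them. In the other direction, 20.0%, 31.0%, 15.5% and 22.0% of those AKAP6-rich cells were ONECUT2-high.

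PLCL2 was higher in the high cells by 0.89, 0.78, 0.93 and 0.94 on the log2 scale and NRSN2 by 0.79, 0.58, 0.63 and 0.72. BAZ1A was lower, with differences of -1.43, -1.05, -0.91 and -0.99. TENM3 gave -0.25, -0.28, -0.50 and -0.78, and NPAS3 gave -0.67, -0.64, -0.23 and -0.23. Of the 19 other genes, 8 were higher in ONECUT2-high cells in all 4 libraries, 8 were lower in all 4 and 3 changed sign. SCRT2 and GLI2 were at the ends of that order as well, SCRT2 with 0.66 to 1.08 and GLI2 with -0.70 to -1.66. Without shared barcodes, the differences of AKAP6 were 0.45, 0.50, 1.87 and 2.12, and those of BAZ1A were -1.47, -1.19, -0.93 and -0.99.

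The shape of the relation with AKAP6 also differed. Cells of each library were sorted by their AKAP6 share and divided into 4 groups of equal number, and ONECUT2 was counted per 1000 UMIs outside GAPDH and AKAP6. The AKAP6 share was taken of UMIs outside GAPDH and ONECUT2. Leaving each gene out of the other's total can itself raise ONECUT2 along with AKAP6, by an amount that was not estimated. In the human libraries ONECUT2 was higher in each next group, from 24.9 to 45.3, 66.7 and 83.4 in human 4 and from 39.2 to 58.5, 75.0 and 102 in human 5. In chimpanzee 3 it stood at 8.66, 10.8, 18.4 and 47.7, and in chimpanzee 4 at 8.66, 10.4, 15.7 and 60.3, so that most of the difference lay in the group richest in AKAP6. That group also held nearly all ONECUT2-high cells of the chimpanzee libraries, at 7.73% and 11.0% of its cells, against at most 0.465% of the cells in each other group.

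Sorted by BAZ1A share, ONECUT2 was lower in each next group in the human libraries, from 72.5 to 55.6, 37.5 and 19.5 per 1000 in human 4 and from 81.4 to 66.4, 54.1 and 34.3 in human 5. In the chimpanzee libraries the drop lay between the group lowest in BAZ1A and the rest, with 33.5, 18.5, 16.4 and 15.5 in chimpanzee 3 and 41.3, 20.2, 16.3 and 15.7 in chimpanzee 4. The 2 species thus showed the same direction for both genes, with different steps.

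**Figure D4:**
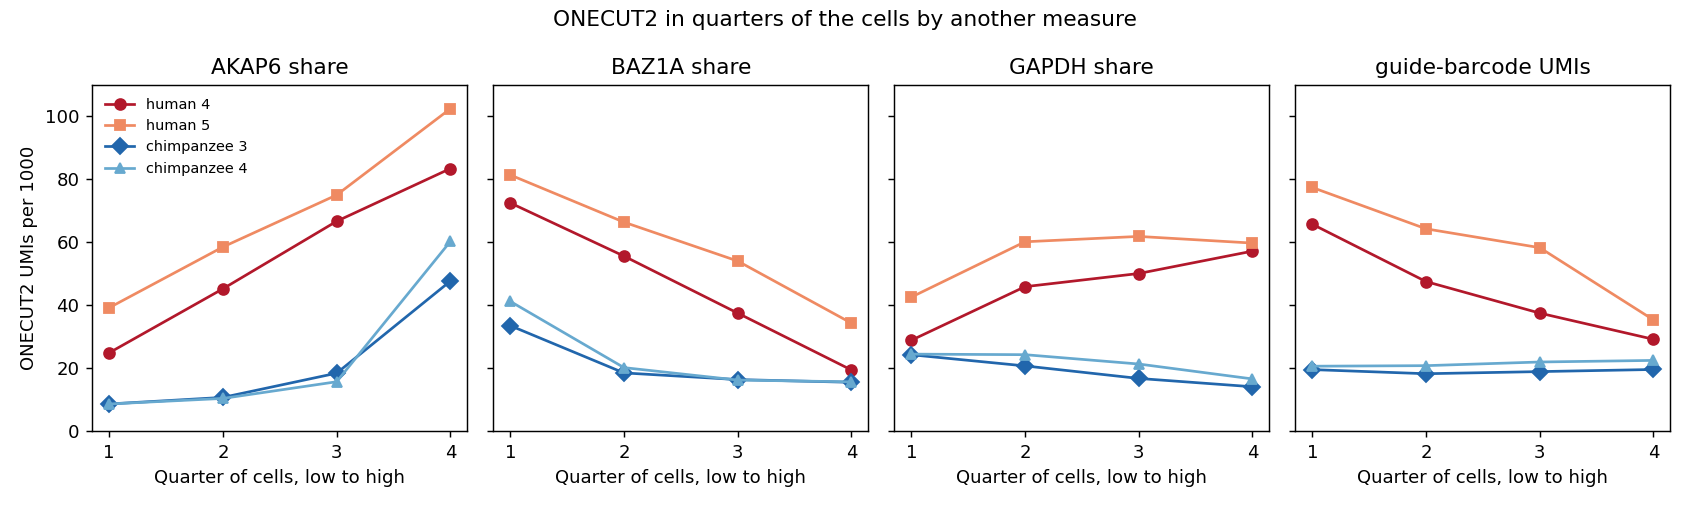
ONECUT2 UMIs per 1000 in 4 equal groups of each library's cells, sorted from low to high by AKAP6 share, BAZ1A share, GAPDH share or total guide-barcode UMIs; for AKAP6 and BAZ1A, UMIs of that gene are left out of the total. ONECUT2 runs upward with AKAP6 and downward with BAZ1A in all 4 libraries, while with GAPDH and with guide-barcode UMIs the human and chimpanzee lines run differently.

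ONECUT2 also differed along GAPDH share, guide-barcode UMIs and depth. Sorted by GAPDH share, it stood at 28.9, 45.9, 50.1 and 57.2 per 1000 in human 4 and 42.6, 60.2, 61.9 and 59.8 in human 5, and at 24.3, 20.8, 16.8 and 14.1 in chimpanzee 3 and 24.5, 24.3, 21.4 and 16.6 in chimpanzee 4. The human libraries had their lowest ONECUT2 where GAPDH was lowest, and the chimpanzee libraries their highest. The 1712 cells of human 4 left out for GAPDH gave 57.8 ONECUT2 UMIs per 1000 outside GAPDH, above the kept cells, from 2939 UMIs. These left-out cells included most of the human 4 cells with a shared barcode. Sorted by total guide-barcode UMIs, ONECUT2 went from 65.8 to 29.2 in human 4 and from 77.4 to 35.4 in human 5 between the lowest and the highest group, while chimpanzee 3 had 19.6 in both and chimpanzee 4 had 20.7 and 22.5. Sorted by depth, it went from 33.2 to 47.9, 56.2 to 52.2, 15.9 to 21.3 and 15.9 to 27.1. Human 5 alone was lower in the deepest group, and without shared barcodes it too was higher there (0.11 on the log2 scale). The part of these measures in the species difference was not tested, and in the comparison by guide barcode below each barcode was set only against other cells with an assigned barcode.

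A cell was assigned to a guide barcode when its leading barcode had at least 5 UMIs and 70% of the cell's guide UMIs. This held for 745 cells of human 4 (35.3%), 831 of human 5 (18.0%), 811 of chimpanzee 3 (13.9%) and 1003 of chimpanzee 4 (22.7%). Assigned cells had less ONECUT2 than the rest in the human libraries, at 41.5 against 48.4 and 40.4 against 59.1 per 1000. They had more in the chimpanzee libraries, at 24.4 against 18.5 and 24.9 against 20.9. Between barcodes with at least 5 cells, ONECUT2 ranged from 13.4 to 55.1 per 1000 in human 4, 16.6 to 67.3 in human 5, 6.73 to 77.9 in chimpanzee 3 and 1.68 to 64.0 in chimpanzee 4. The median barcode had 23 to 31 cells, and a single cell held 14.8% to 33.9% of its ONECUT2 UMIs in the median class, so that these ranges include the spread of few cells.

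Over the 4 libraries together, 0 of 25 barcodes differed from the mean of the others in ONECUT2 by edgeR's quasi-likelihood test, with 1 at an unadjusted p below 0.05, against 0.2% called of the 500 pairs of barcode and gene. DESeq2 also gave 0 barcodes, with 1 at an unadjusted p below 0.05. SplintRbar12 had the smallest p, with a log2 difference of 0.73 ± 0.26 (SE) and an adjusted p of 0.508, and without chimpanzee 3 its difference was 0.39. The next were Brainbar3 at 0.63 ± 0.34 (adjusted p = 0.954), which turned to -0.45 without chimpanzee 3, and Brainbar4 at -0.44 (adjusted p = 0.997). Brainbar4 was at -0.24 without human 5. When every barcode with 5 UMIs in a cell was counted, the 3 stood at 0.05, -0.06 and 0.09, with Brainbar3 and Brainbar4 on the other side of 0. There a cell could enter the classes of several barcodes. Classes that share cells are drawn toward each other, so these values cannot check the differences above. With each barcode tested by itself against all other assigned cells, SplintRbar12 (0.72, adjusted p = 0.00242) and Brainbar7 (0.43, adjusted p = 0.00956) passed by the same edgeR test, against 0.4% of the 500 pairs.

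Within the human libraries, 2 of 25 barcodes passed for ONECUT2, against 2.8% of all 500 pairs of barcode and gene, and 10 had an unadjusted p below 0.05. The share of all pairs below that unadjusted cut was not counted in this or the other fits, so these 10 are not read as barcode effects. Brainbar1 cells had less ONECUT2 than the other assigned cells, at 13.4 against 42.1 per 1000 in human 4 and 16.6 against 40.8 in human 5. Brainbar1 was the lowest barcode with at least 5 cells in each of the 2 libraries. The fitted difference was -1.43 ± 0.28 on the log2 scale (SE), with an adjusted p of 0.000594 by edgeR. It rests on 15 cells and 23 ONECUT2 UMIs in human 4 and 15 cells and 24 UMIs in human 5, of which the top cell gave 34.8% and 29.2%.

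In the Brainbar1 cells other measures stood away from the rest as well. Per 1000 UMIs outside GAPDH and ONECUT2, BAZ1A was at 100.4 against 64.0 in human 4 and 94.4 against 70.3 in human 5, and AKAP6 at 163.5 against 196.7 and 167.6 against 191.7. Median guide-barcode UMIs were 458 against 506 in human 4 and 526 against 415.5 in human 5, so guide load stood lower in one library and higher in the other. None of the Brainbar1 cells had a shared cell barcode. Under a looser assignment (leading barcode with 2 UMIs and 50% of guide UMIs) the difference was -0.59 with an adjusted p of 0.204 by edgeR, and the call was lost (2.41% of all pairs called). In chimpanzee 4, Brainbar1 had 64.0 per 1000 over 6 cells against 24.4 in the other assigned cells, with 50.0% of its UMIs from 1 cell, and chimpanzee 3 had 1 such cell, too few to enter the test of the species difference. Under the looser assignment that difference was -0.50 (human minus chimpanzee), with an adjusted p of 0.966 by edgeR.

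SplintRbar22 cells had more ONECUT2, at 50.8 against 40.8 per 1000 over 57 cells of human 4 and 56.9 against 39.7 over 35 cells of human 5. The difference was 0.53 ± 0.16 with an adjusted p of 0.0453 by edgeR. It did not pass with DESeq2 (0.49, adjusted p = 0.0946, 3.2% of pairs called), without shared cell barcodes (0.49, adjusted p = 0.0844, 2.6% called) or under the looser assignment (0.24, adjusted p = 0.659). None of the SplintRbar22 cells in human had a shared cell barcode. In the chimpanzee libraries SplintRbar22 stood at 18.6 against 24.6 over 28 cells and 21.1 against 25.4 over 143 cells, and its difference between species was 0.78 ± 0.43 with an adjusted p of 0.780 by edgeR. The third-smallest p in human was that of SplintRbar1 (-0.67 ± 0.23, adjusted p = 0.117).

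Within the chimpanzee libraries, 0 of 24 barcodes passed for ONECUT2 by edgeR's quasi-likelihood test, with 2 at an unadjusted p below 0.05, against 0.0% of 480 pairs of barcode and gene. DESeq2 also gave 0, with 2 at an unadjusted p below 0.05 and 0.208% of pairs called. Brainbar3 had 77.9 against 23.6 per 1000 in chimpanzee 3 and 38.4 against 24.8 in chimpanzee 4, a fitted difference of 1.53 ± 0.48 with an adjusted p of 0.432 by edgeR. Its 9 and 6 cells held 100 and 14 ONECUT2 UMIs, and 1 cell gave 92.9% of those in chimpanzee 4. SplintRbar12 had 63.8 against 23.4 over 17 cells and 41.8 against 24.4 over 20 cells (1.26 ± 0.40, adjusted p = 0.432). SplintRbar5 had 22.5 against 24.4 over 30 cells in chimpanzee 3 and 1.68 against 25.1 over 14 cells in chimpanzee 4 (-0.78 ± 0.53, adjusted p = 0.999), so only chimpanzee 4 was low.

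The difference of barcode effects between species was tested for the 23 barcodes with enough cells in all 4 libraries. By edgeR's interaction test 0 passed for ONECUT2, with 3 at an unadjusted p below 0.05, against 0.87% of 460 pairs called, and DESeq2 gave 0, with 2 (1.09% of pairs called). Brainbar3 came nearest, with -2.10 ± 0.60 (human minus chimpanzee, SE) and an adjusted p of 0.0685. In human it stood at 25.5 against 41.8 per 1000 in human 4 and 26.9 against 40.5 in human 5, over 10 and 6 cells. A single cell held 44.4% and 57.1% of those ONECUT2 UMIs. Its summed share was thus low in both human and high in both chimpanzee libraries. The median cell did not follow this in human 5 (2.26% against 2.19%) or chimpanzee 4 (0% against 0.901%), but did in human 4 (1.29% against 1.98%) and chimpanzee 3 (3.57% against 0.875%). The Brainbar3 difference between species passed under the looser assignment (-1.78, adjusted p = 0.0473, with 0.741% of pairs called) and without shared cell barcodes (-2.26, adjusted p = 0.0309, with 1.3% called) by the same edgeR test. SplintRbar1 (-1.29, adjusted p = 0.439) and SplintRbar12 (-0.98, adjusted p = 0.470) followed.

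The direction of a barcode was also compared between the libraries of each species. Of 25 barcodes with at least 5 cells in both human libraries, 9 were below the other assigned cells in both, 9 were above in both and 7 were on opposite sides. Of 24 in the chimpanzee libraries, 9 were below in both, 4 above in both and 11 on opposite sides. The difference between these counts was not tested.

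**Figure D5:**
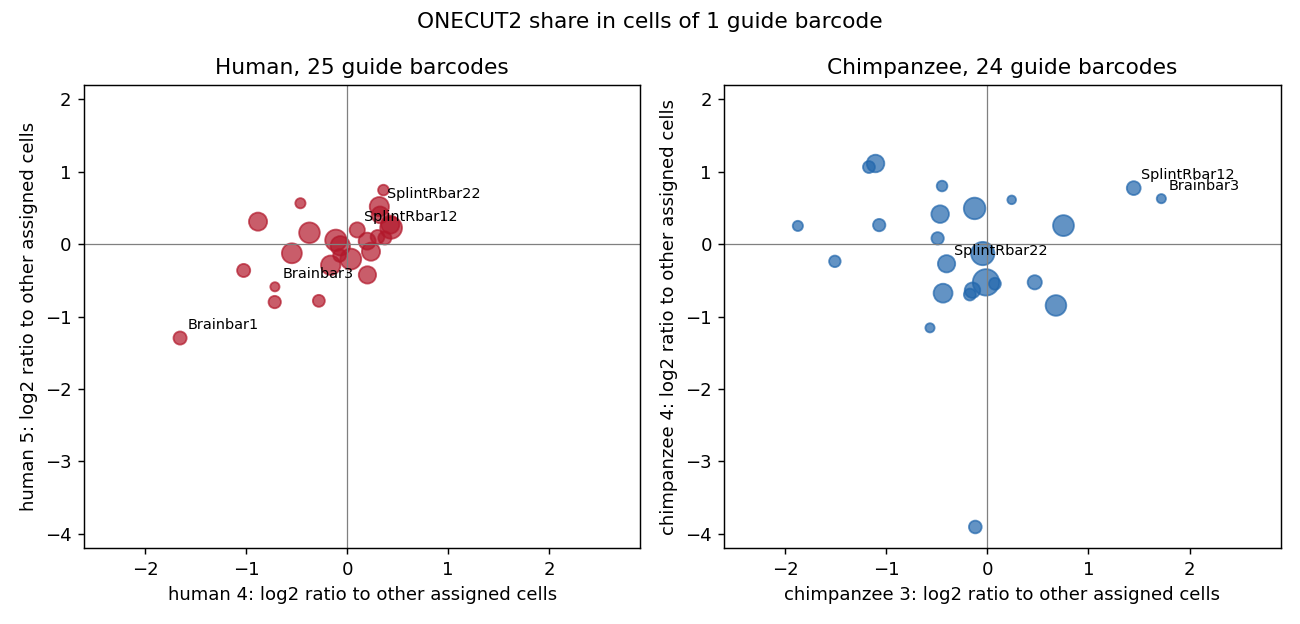
Log2 ratio of the ONECUT2 share in cells of a guide barcode to that in the other assigned cells, in the 2 libraries of each species (one on each axis); each point is 1 barcode with at least 5 cells in both, and larger points have more cells in the smaller class. Brainbar1 lies lowest in both human libraries, and the lowest chimpanzee point is SplintRbar5 with 14 cells in chimpanzee 4. Brainbar3 is low in human and high in chimpanzee by this summed share, though not by its median cell in each library.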

How the data were processed

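The authors deposited counts of unique molecular identifiers (UMIs) per cell barcode, gene probe and guide barcode, per the file headers. Upstream, fastp, Bowtie, SAMtools, UMI-tools and the hg38 build were used, per the submitters' processing notes; which step each served, and in which version, is not given in the sources used here. ONECUT2 and the lists were chosen with earlier results of these data known. Cells above 80% GAPDH were left out, and no doublet caller was run. Human and chimpanzee were compared on UMIs summed per library with edgeR 4.0.16 (R 4.3.3; quasi-likelihood, legacy method with a common dispersion, 10 UMIs in all 4 libraries, adjusted p below 0.05 by Benjamini-Hochberg). For guide barcodes, UMIs were summed per library and barcode (at least 5 cells, at least 3 libraries in the 4-library fit, genes with 10 UMIs in 6 classes), with library in the model and adjustment over all pairs of barcode and gene. DESeq2 1.42.0 was the other tool. The fits and the measures of spread were tested on simulated data. GAPDH stayed out of the fits, and 1 further gene entered all fits and counts but is not reported here.

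Cells were thinned without replacement to 40 UMIs (seed 20) with numpy 2.4.6, and exact binomial intervals came from scipy 1.17.1. Intervals cover counting error only. The libraries of a species differed beyond counting, with a chi-square per degree of freedom of 35.0 for the human and 132 for the chimpanzee pair (19 degrees of freedom). Named genes were the 3 with the highest and the 3 with the lowest mean correlation with ONECUT2, the transcription factors of the set, the 2 nearest in mean UMIs, the genes highest in spread and GAPDH. Named barcodes were those passing in any fit and the 3 with the smallest p per fit.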

Additional observations from a re-analysis of the deposited data

Results flagged for a closer look

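In 4 measures both human libraries had the opposite sign to both chimpanzee libraries, and none of these differences between species was tested. The search covered the outer groups by depth, GAPDH share, guide-barcode UMIs and the shares of AKAP6, NRSN2, PLCL2, BAZ1A, TENM3 and NPAS3. It also covered assigned against unassigned cells and the correlations with those genes, BHLHE40, GLI2 and SCRT2. The other measures searched did not split the species in this way. Between the cells lowest and highest in GAPDH share (the outer 2 of 4 equal groups), ONECUT2 differed by 0.99 and 0.49 on the log2 scale in human 4 and human 5, and by -0.78 and -0.56 in chimpanzee 3 and chimpanzee 4. Without shared cell barcodes these were 1.07, 0.55, -0.97 and -0.56. Between the cells lowest and highest in guide-barcode UMIs, ONECUT2 differed by -1.17 and -1.13 in human 4 and human 5, and by 0.0026 and 0.12 in chimpanzee 3 and chimpanzee 4, where the first is close to no difference. Without shared cell barcodes these were -1.28, -1.42, 0.021 and 0.12. Between assigned and unassigned cells, ONECUT2 differed by -0.22 and -0.55 in human 4 and human 5, and by 0.40 and 0.25 in chimpanzee 3 and chimpanzee 4. The correlation of ONECUT2 with BHLHE40 over cells was -0.0109 and -0.0991 in human 4 and human 5, and 0.0328 and 0.0527 in chimpanzee 3 and chimpanzee 4, all of them weak in sparse counts. With BHLHE40 relative to the total without ONECUT2, the values were 0.040, -0.052, 0.051 and 0.076. Human 4 then had the sign of the chimpanzee libraries, so this split did not hold on that scale.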

How the results depend on the processing

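The species difference of ONECUT2 kept its direction in 15 alternative model fits, from 0.80 to 1.58 on the log2 scale. The fits with all 4 libraries passed by edgeR or DESeq2 (adjusted p at most 0.00221). The other 4 fits left out 1 library and gave 0.80 to 1.11. In those, the lone library of a species is assumed to vary like the other species' pair, so only their size is given. Exact permutation gave 1.44 for the mean of cell shares and 1.31 for summed UMIs (p = 0.33 each), a design that cannot reach the threshold. Detection (23.1 to 36.0 percentage points with 1 library left out) and spread (-0.620 to -0.393) kept their direction in all 9 alternatives each. For barcodes, the 4-library count of 0 became 2 with 1 barcode at a time and was 0 without each library. The human count of 2 became 0 under the looser assignment, 1 with DESeq2 and 1 without shared cell barcodes. The interaction count of 0 became 1 under the looser assignment and 1 without shared cell barcodes. The causes were not tested. The chimpanzee count was 0 in all 6 settings. The correlations with AKAP6, NRSN2, PLCL2, BAZ1A, TENM3 and NPAS3 kept their signs, and thinning cut NRSN2 from 0.196 to 0.095, PLCL2 from 0.176 to 0.080 and BAZ1A from -0.379 to -0.242 (means over libraries). Leaving out shared barcodes or the deepest 5% of cells, the total without ONECUT2, the newer edgeR method for the per-species and interaction fits, and leaving out a library for detection and spread were chosen after seeing the data. No paired analysis was possible because all 4 libraries belong to 1 screen replicate, so the groups share fewer than 2 numbers. Few cells per barcode limit the barcode comparisons.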
